A study of Mus musculus with 8 samples.

Results

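Prox1, Nr2f1, Nr2f2, Sp8, Npas1, Npas3 and Adarb2 are 7 genes that mark or regulate the inhibitory neurons born in the caudal ganglionic eminence, a transient zone of the embryonic brain. They were found by gene symbol in count tables of 55450 genes, and all 7 were among the 16448 genes with enough reads to be tested. Each library was made from the nuclear RNA of 1 juvenile mouse cortex, after its fluorescent nuclei had been collected with a cell sorter. Both groups carried a Cre driver active in GABAergic neurons and a Cre-dependent reporter that makes nuclei fluoresce. Control mice were Thra+/+ (4 libraries, numbered 1 to 4). Mutant mice were Thra+/AMI, with a Thra allele that Cre switches on in the same neurons and whose product acts as a dominant-negative thyroid hormone receptor. The labels list 4 mutants, numbered 6, 7, 8 and 10, but the tables of mutants 7 and 10 held the same counts in all 21975 genes with a read and were counted as 1 library, so 3 mutants were compared with 4 controls. The sort took all reporter-positive nuclei, so each value is an average over every class of GABAergic neuron in the cortex, and neither the driver line nor the age in days, sex or litter of the mice is stated in the labels.

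Neurons from the caudal ganglionic eminence become the cortical VIP, LAMP5 and SNCG classes, most of which carry the ionotropic serotonin receptor Htr3a, whereas parvalbumin and somatostatin neurons come from the medial ganglionic eminence and depend on Lhx6. Prox1 is a homeodomain transcription factor that the caudal lineage keeps after birth. Nr2f1 (COUP-TFI) and Nr2f2 (COUP-TFII) are orphan nuclear receptors, Sp8 is a zinc finger transcription factor, and Npas1 and Npas3 are transcription factors of the bHLH-PAS family. Adarb2 encodes an RNA-binding relative of the RNA-editing enzymes that does not edit and is a broad marker of the caudal lineage. Thyroid hormone receptors and COUP-TF proteins both recognise the sequence AGGTCA, the former often as a direct repeat with a spacer of 4 bases.

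Npas1 was the one gene of the 7 called as different between genotypes in every fit, and Npas3 was called in some. The stretches of 250 bases just before their RefSeq start sites (RefSeq, GRCm38.p6) are shown because these are the starts of the 2 genes with the largest differences. Npas1 lies on the minus strand and its stretch is chr7:16476781-16477030. This stretch lies outside every annotated exon but within the span that GENCODE M21, used for the counts, gives Npas1 (chr7:16455721-16477728). Npas3 lies on the plus strand and its stretch is chr12:53248182-53248431. Capitals mark the Sp-factor motif GGGCGG, which in the Npas1 stretch is read on the other strand and so appears as its reverse complement.
Npas1: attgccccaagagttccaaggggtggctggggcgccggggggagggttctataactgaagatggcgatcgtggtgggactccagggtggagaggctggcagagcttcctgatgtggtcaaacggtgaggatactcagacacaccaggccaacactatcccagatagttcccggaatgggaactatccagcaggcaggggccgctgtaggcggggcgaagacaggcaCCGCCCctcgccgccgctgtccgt
Npas3: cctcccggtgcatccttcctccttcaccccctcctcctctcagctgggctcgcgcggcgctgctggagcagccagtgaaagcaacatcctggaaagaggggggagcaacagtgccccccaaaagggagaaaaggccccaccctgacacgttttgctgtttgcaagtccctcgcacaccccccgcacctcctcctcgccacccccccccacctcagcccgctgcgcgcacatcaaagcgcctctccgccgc
In windows of 300 bases (250 before to 50 after each start), searched on both strands, GGGCGG was present at a start of Prox1, Npas1, Sp8, Adarb2 and Nr2f1 and in 35.66% of all 32851 mouse promoters. Shares of all promoters are per window, whereas Prox1, Sp8 and Nr2f1 each had more than 1 window in which to match. AGGTCA was present at 1 of the 3 starts of Sp8 and at no start of the other 6 genes, against 16.26% of all promoters. Neither the direct repeat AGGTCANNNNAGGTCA (0.02% of promoters) nor the E-box CACGTG (7.15%) was found at any start of the 7 genes. These matches describe letters in the windows and were not used to select or test genes.

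Nr2f1 and Nr2f2 are close paralogs, and part of their coding sequence is shown because reads from one could in principle be counted for the other. The stretches below are bases 202 to 321 of the 1260-base coding sequence of Nr2f1 and bases 190 to 309 of the 1242 bases of Nr2f2 (GENCODE M21, GRCm38). They hold the longest run of identical bases, and capitals mark the bases that differ.
Nr2f1: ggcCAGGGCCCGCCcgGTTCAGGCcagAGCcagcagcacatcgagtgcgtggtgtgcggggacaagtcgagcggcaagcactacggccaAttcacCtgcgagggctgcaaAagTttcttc
Nr2f2: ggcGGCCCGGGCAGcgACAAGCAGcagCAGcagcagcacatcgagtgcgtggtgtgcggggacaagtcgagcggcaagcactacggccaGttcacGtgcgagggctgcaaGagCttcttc
In this stretch 94 of 120 bases were identical and 26 differed. The longest identical run was 59 bases, shorter than a read of 75 bases. This run was sought in the coding sequences only, and the untranslated parts and introns of the paralogs were not compared.

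The libraries held 10747169 to 13804734 counted reads, and levels are given in CPM, reads scaled to library size with the TMM factors of edgeR, of which 1 stands for about 10.7 reads in the smallest library. Gad1 reached 520.1 to 663.8 CPM and the glutamatergic marker Slc17a7 46.9 to 94.5 CPM over the 7 libraries. Thra was 114.4 ± 9.35 CPM (SD, n = 4) in controls and 87.5 ± 9.39 (n = 3) in mutants. Its difference missed the threshold (log2 fold change -0.39, edgeR adjusted p = 0.0543), and counts per gene do not separate the mutant allele from the normal one. Controls 1 and 4 stood apart from the rest by gene length: over the 233 tested genes longer than 500 kb, the median log2 deviation from the mean of the libraries was -0.55 in control 1 and 0.60 in control 4, against -0.14 to 0.12 in the other 5. Control 4 and mutant 8 held 4 and 3 reads of 4 Y-linked genes and the others 5094 to 6644, so both groups mixed these 2 kinds of library. All 13127 genes that lie wholly within the span of other genes had no read in any library, 684 protein-coding genes without a shared exon among them. Counts thus came from the parts of each gene's span, introns included, that no other gene covers on either strand. Of the spans of the 7 genes, from 0 (Sp8) to 16.1% (Nr2f1) was shared in this way.

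Over all tested genes, edgeR's quasi-likelihood test called 1549 at a Benjamini-Hochberg adjusted p under 0.05, or 9.42%, with 762 higher (4.63%) and 787 lower (4.78%) in mutants. Groups whose CPM values did not overlap were found for 22% of the tested genes, 11.2% with the mutants above and 10.7% with the mutants below the controls. Of the 7 lineage genes, 1 was called (Npas1, higher) and 2 had groups that did not overlap (Npas1 and Nr2f2, both higher), shares near those of all genes. Log2 fold changes were above 0 for Prox1, Nr2f2, Npas1 and Npas3 and below 0 for Nr2f1, Sp8 and Adarb2, with a median of 0.17 against -0.01 over all tested genes. In a pool of sorted nuclei, more nuclei of a class and more RNA per nucleus cannot be told apart.

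**Figure D1:**
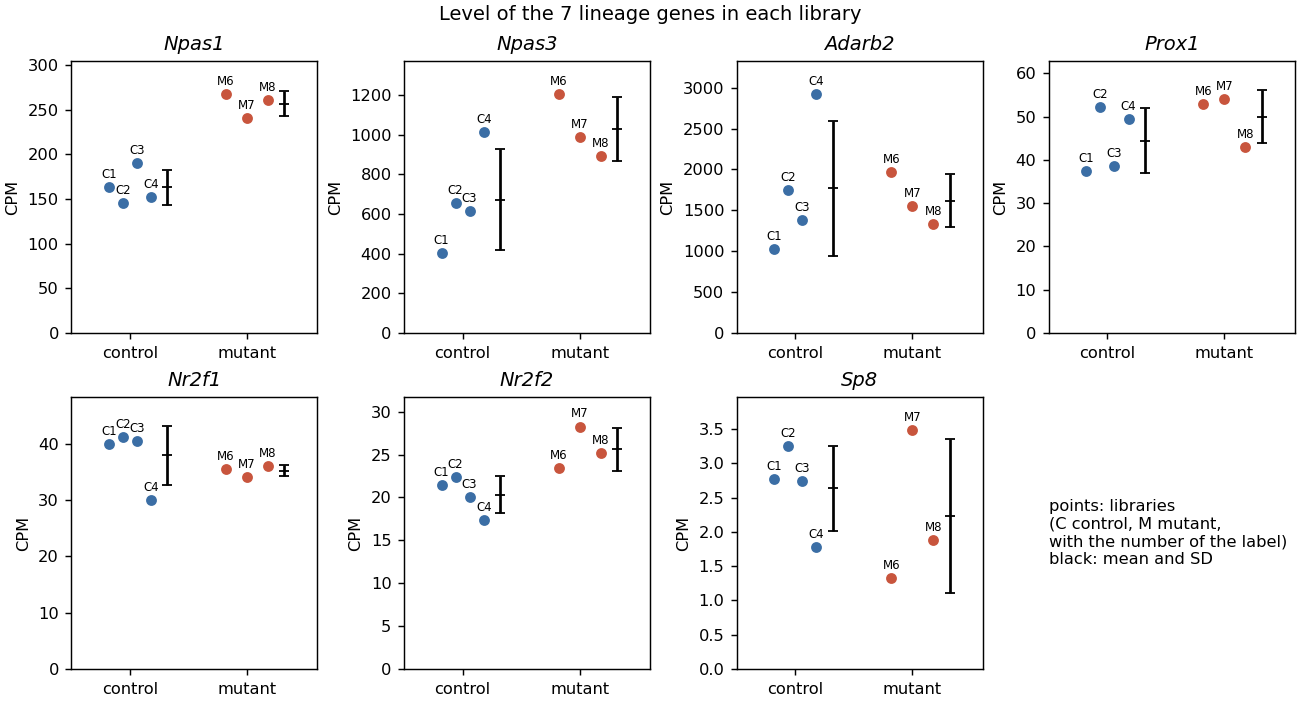
Each panel plots 1 gene, with the 7 libraries as points grouped by genotype on the x axis (C for control, M for mutant). The y axis gives the level in CPM, and black marks give the mean and SD of each group. For Npas1 the 3 mutants (240.8 to 267.9 CPM) lie above the 4 controls (144.9 to 190.1 CPM), whereas for Npas3 and Adarb2 control 4 is the highest or close to the highest library.

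Npas1 encodes a bHLH-PAS transcription factor that restrains the production of interneurons in the embryo. The gene (ENSMUSG00000001988.9) occupies chr7:16455721-16477728 on the minus strand of GRCm38. Its level was 163.8, 144.9, 190.1 and 152.4 CPM in controls 1 to 4 and 267.9, 240.8 and 260.4 CPM in mutants 6, 7 and 8. All 3 mutants lay above all 4 controls, and the spread within each group was narrow.

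The means were 162.8 ± 19.8 CPM (SD, n = 4) and 256.4 ± 13.99 CPM (n = 3), a 1.57-fold rise (95% interval 1.31 to 1.89). The log2 fold change was 0.66 (SE 0.12, edgeR adjusted p = 0.00527). Npas1 rested on 1890 to 2497 reads per control and 2623 to 3424 per mutant, and at 22.0 kb it is a gene of ordinary length. It was called in 17 of 17 alternative fits, at a log2 fold change of 0.60 to 0.74 (adjusted p from 1.54e-05 to 0.0375). Without control 4 and mutant 8, the libraries low in Y-linked reads, the log2 fold change was 0.61 (edgeR adjusted p = 0.0152). Only 0.541% of its span was shared with another gene, an annotated ribosomal RNA gene with no read.

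Npas3, a relative of Npas1 that promotes the generation of interneurons, is among the longest of the tested genes. The gene (ENSMUSG00000021010.8) occupies chr12:53248677-54072175 on the plus strand, a span of 823.5 kb that is longer than 99.4% of those of all tested genes. Its level was 405.0, 656.2, 614.5 and 1014 CPM in controls 1 to 4 and 1206, 986.9 and 891.9 CPM in mutants 6, 7 and 8. The 3 mutants lay above controls 1, 2 and 3, while control 4 lay above mutants 7 and 8.

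The means were 672.5 ± 252.9 CPM (SD, n = 4) and 1028 ± 161.0 CPM (n = 3). The log2 fold change of 0.61 (SE 0.26, 95% interval 0.06 to 1.17) was similar in size to that of Npas1 but missed the threshold (edgeR adjusted p = 0.176). The spread among controls followed gene length. On the log2 scale, the deviations of Npas3 from its mean were -0.95 in control 1 and 0.38 in control 4, and the trend over genes of the same length gave -0.60 and 0.58 in these libraries.

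After the trend of each library was subtracted, Npas3 lay between -0.34 and -0.20 in the 4 controls and between 0.20 and 0.52 in the 3 mutants, without overlap. The SD of the controls fell from 0.542 to 0.0707 on this scale. With the trend as an offset in edgeR, Npas3 was 0.62 higher in mutants (log2, adjusted p = 0.000137), in a fit that called 16.5% of all tested genes. Without control 4 alone the log2 fold change was 0.88 (edgeR adjusted p = 0.0033, 14.5% of genes called), and without controls 1 and 4 it was 0.69 (edgeR adjusted p = 0.000104, 16.7% called), the latter a fit added once the values were known. It was also called by limma-voom (19.1% of genes called), without control 4 and mutant 8 (8.53%) and with 1 surrogate variable (20.5%). In 6 of 17 alternative fits Npas3 was called, and its log2 fold change was above 0 in all 17 (0.44 to 0.97).

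**Figure D2:**
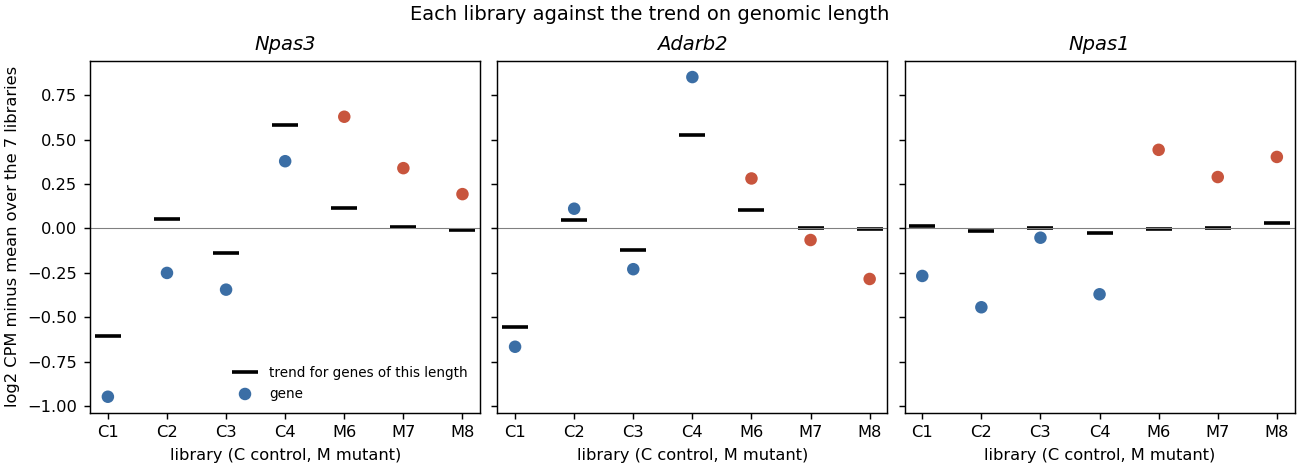
For each gene shown, points give log2 CPM minus the mean over the 7 libraries (C, control; M, mutant), and black dashes give the trend that genes of the same genomic length follow in that library. For Npas3 the 4 controls lie below their dashes, by 0.20 to 0.34, and the 3 mutants above theirs, by 0.20 to 0.52.

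Adarb2, the next longest of the 7 genes, was not called. The gene (ENSMUSG00000052551.16) occupies chr13:8202866-8768747 on the plus strand, 565.9 kb. Its level was 1023, 1752, 1384 and 2926 CPM in controls 1 to 4 and 1970.0, 1551 and 1332 CPM in mutants 6, 7 and 8. The mutants lay within the range of the controls, which itself ran from the lowest to the highest of all 7 values.

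The means were 1771 ± 825.3 CPM (SD, n = 4) and 1617 ± 324.4 CPM (n = 3), with a log2 fold change of -0.13 (SE 0.31, 95% interval -0.81 to 0.54, edgeR adjusted p = 0.864). The sign turned to 0.22 without control 4. Subtracting the length trend lowered the SD of the controls from 0.640 to 0.206 on the log2 scale, and the groups still overlapped (controls -0.11 to 0.33, mutants -0.28 to 0.18). With the length offset the interval narrowed to -0.36 to 0.16 around a log2 fold change of -0.10.

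Because Npas3 and Adarb2 share the length trend, their reads can be compared within a library. The ratio of Npas3 to Adarb2 reads was 0.396, 0.375, 0.444 and 0.347 across the controls (1 to 4) and 0.612, 0.636 and 0.670 in mutants 6, 7 and 8. Every mutant lay above every control. The mean difference was 0.72 on the log2 scale (exact two-sided permutation test over the 35 splits of 7 libraries, p = 0.0286, the smallest this design allows; 0.0857 after Benjamini-Hochberg adjustment, which missed 0.05, over the 6 ratios computed, picked once their values were known). The difference was 0.66 to 0.78 when each library was left out in turn and 0.71 after the length trend was subtracted. The ratio of Npas1 to Npas3 reads ran from 0.1503 to 0.404 in controls and from 0.222 to 0.292 in mutants, so the mutants lay within the controls (log2 difference -0.02, exact permutation p = 1.0).

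**Figure D3:**
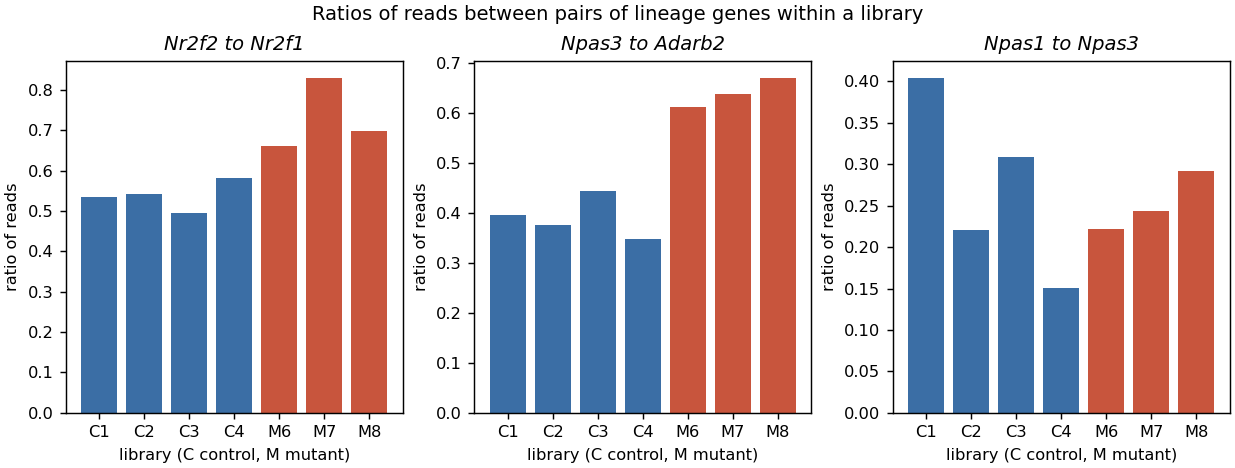
Bars in each panel give the ratio of reads of 1 pair of genes in each library (C for control, M for mutant). The ratio of Npas3 to Adarb2 is 0.347 to 0.444 in controls and 0.612 to 0.670 in mutants, and that of Nr2f2 to Nr2f1 is 0.495 to 0.581 and 0.660 to 0.830.

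Nr2f2, the COUP-TFII receptor typical of caudal neurons, had higher values in the mutants but was not called. The gene (ENSMUSG00000030551.14) occupies chr7:70351944-70366735 on the minus strand, 14.8 kb. Its level was 21.4, 22.4, 20.02 and 17.4 CPM in controls 1 to 4 and 23.4, 28.3 and 25.2 CPM in mutants 6, 7 and 8. The groups did not overlap, although mutant 6 and control 2 were close.

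The means were 20.3 ± 2.15 CPM (SD, n = 4) and 25.6 ± 2.47 CPM (n = 3). The log2 fold change was 0.33 (SE 0.14, 95% interval 0.03 to 0.64, unadjusted p = 0.0337, edgeR adjusted p = 0.176). Over 17 alternatives it stayed between 0.26 and 0.39 and was called in 1, the fit with 1 surrogate variable (adjusted p = 0.0431, a fit that called 20.5% of genes).

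Its paralog Nr2f1 (ENSMUSG00000069171.14, chr13:78188973-78199757, minus strand, 10.8 kb) patterns the cortex and is also expressed in caudal neurons. Its level was 40.0, 41.2, 40.4 and 30.0 CPM in controls 1 to 4 and 35.4, 34.1 and 36.1 CPM in mutants 6, 7 and 8. The mutants were close to each other and lay between control 4 and the other controls. The means were 37.9 ± 5.29 CPM (SD, n = 4) and 35.2 ± 1.02 CPM (n = 3), with a log2 fold change of -0.11 (SE 0.13, 95% interval -0.40 to 0.18, edgeR adjusted p = 0.71).

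The reads of the paralogs were also compared within each library. The ratio of Nr2f2 to Nr2f1 reads was 0.536, 0.543, 0.495 and 0.581 across the controls (1 to 4) and 0.660, 0.830 and 0.698 in mutants 6, 7 and 8. All mutants lay above all controls. The mean difference was 0.43 on the log2 scale (exact two-sided permutation p = 0.0286, and 0.0857 after adjustment over the 6 ratios, which missed 0.05), and 0.34 to 0.50 when each library was left out in turn. In the coding sequences of the paralogs the longest identical run was 59 bases, shorter than a read. Their untranslated parts and introns, which are also counted, were not compared, so reads counted for the wrong paralog were not tested for.

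Long noncoding transcripts leave the starts of 3 of the lineage genes in the opposite direction, and the stretch that both cover is not counted for either. A830082K12Rik starts 1740 bp from Nr2f1 and was 85.6 ± 26.4 CPM in controls and 77.1 ± 4.92 CPM in mutants (SD, n = 4 and 3, edgeR adjusted p = 0.719). B130024G19Rik starts 1825 bp from Nr2f2, and its log2 fold change was 0.02 (edgeR adjusted p = 0.98). Prox1os starts 418 bp from Prox1, at 4.38 ± 0.936 CPM in controls and 5.10 ± 1.44 CPM in mutants (SD, n = 4 and 3, edgeR adjusted p = 0.711). None of these partners was called. The ratio of each gene to its partner overlapped between groups, with log2 differences of 0.01 for Nr2f1, 0.24 for Nr2f2 and -0.03 for Prox1 (exact permutation p = 0.971, 0.6 and 0.943). The other 10 annotated genes that overlap 1 of the 7 genes or start within 5 kb of its start were mostly silent: 8 had no read in any library, Gm48257 had 24 reads in all, and 1700060O08Rik at the far end of Npas3 had 182 and was not called (edgeR adjusted p = 0.828).

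Prox1 (ENSMUSG00000010175.13, chr1:190118035-190170714, minus strand, 52.7 kb) was measured at 37.4, 52.1, 38.7 and 49.5 CPM in controls 1 to 4 and at 53.0, 54.1 and 42.9 CPM in mutants 6, 7 and 8. Mutants 6 and 7 were slightly above every control, and mutant 8 lay among them. The means were 44.4 ± 7.497 CPM (SD, n = 4) and 49.96 ± 6.18 CPM (n = 3). The log2 fold change of 0.17 (SE 0.15, 95% interval -0.15 to 0.49, edgeR adjusted p = 0.565) was within the spread of the libraries. It lay between 0.10 and 0.32 over 17 alternatives, none of which called it.

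Sp8, a factor of progenitors and young neurons of the caudal eminence and of the olfactory bulb lineage, had the fewest reads of the 7 genes. The gene (ENSMUSG00000048562.7) occupies chr12:118846329-118852576 on the plus strand, 6.25 kb. Its level was 2.78, 3.25, 2.74 and 1.77 CPM in controls 1 to 4 and 1.33, 3.49 and 1.88 CPM in mutants 6, 7 and 8, from 22 to 43 reads per control and 17 to 38 per mutant. The lowest and the highest of the 7 values were both mutants. The means were 2.64 ± 0.619 CPM (SD, n = 4) and 2.23 ± 1.12 CPM (n = 3). The log2 fold change was -0.26 with a 95% interval from -1.04 to 0.53 (edgeR adjusted p = 0.751), and without mutant 6 it was 0.01.

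**Figure D4:**
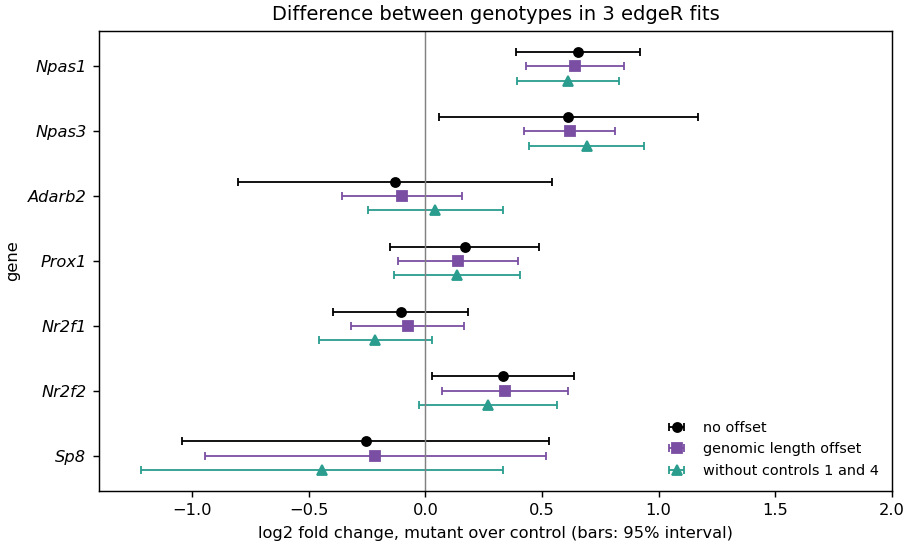
Each point is the log2 fold change of a gene, mutant over control, with its 95% interval as a bar, from edgeR on all libraries, with the trend on gene length as an offset, and without controls 1 and 4. Npas1 stays between 0.61 and 0.66 in the 3 fits, and the interval of Npas3 narrows from 0.06 to 1.17 on all libraries to 0.42 to 0.81 with the offset.

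Divided by the unshared span of each gene in kb, a scale on which nuclear reads from introns count fully, the levels in controls were ordered Npas1, Nr2f1, Adarb2, Nr2f2, Prox1, Npas3 and Sp8. Npas1 was highest at 7.44 ± 0.903 CPM per kb (SD, n = 4) and Sp8 lowest at 0.422 ± 0.0991. Nr2f1 (4.19 ± 0.584) and Adarb2 (3.20 ± 1.49) were not separated in controls, where Nr2f1 was the higher in 3 of 4 libraries. Prox1 (0.866 ± 0.146) and Npas3 (0.833 ± 0.313) were not separated either, with Prox1 higher in 2 of 4. The control ranges of Npas3 and Sp8 also overlapped, although Npas3 was the higher in 4 of 4 libraries. In mutants Npas1 was again highest (11.7 ± 0.639 CPM per kb, n = 3), and Npas3 (1.27 ± 0.200) lay above Prox1 (0.974 ± 0.121) in 3 of 3 libraries, with ranges that did not overlap. Divided by exonic length, the long genes came first: Adarb2 exceeded Npas3 in 4 of 4 controls and in 0 of 3 mutants. The order of levels therefore depends on the length used, and neither length is that of the spliced transcript alone.

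Among 11797 other genes (mean level 5 CPM or more), those whose log2 CPM most resembled each lineage gene over the 7 libraries were found by Pearson's r. For Npas1 these were Adgrg1 (r = 0.99), Zranb3 (0.98) and Begain (0.98). Adgrg1, an adhesion receptor, was 12.3 ± 1.76 CPM in controls and 25.4 ± 3.15 CPM in mutants (SD, n = 4 and 3, log2 fold change 1.05, edgeR adjusted p = 0.0014). For Npas3 they were Ptprt, Pard3b and Tenm2 (r from 0.99 to 1.00), with spans of 1139, 1003 and 1229 kb. Their log2 fold changes of 0.462, 0.581 and 0.545 were near the 0.613 of Npas3, and none was called (edgeR adjusted p = 0.177, 0.197 and 0.178). For Adarb2 the closest were Snx25, Dab1 and Ntrk3 (r = 0.99 each), of 118.9, 1125 and 562.1 kb. Their log2 fold changes were -0.016, -0.028 and -0.052. Pde3b, Uxs1 and Phtf1 came closest to Prox1 (r = 0.99, 0.97 and 0.96), Rhebl1, Ptpru and Eif1ad to Nr2f1 (0.98 each), Gpr27, Atl1 and Kif3a to Nr2f2 (0.99, 0.99 and 0.98), and Ggnbp2, Naa30 and Slc2a3 to Sp8 (0.97, 0.95 and 0.94). The points are the same 7 libraries for every gene, and all genes of a library share its depth and length trend, so these values describe likeness only.

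Genes of the same families were read from the same fit. Of 9 paralogs and partners, 1 was higher (Npas4) and 1 lower (Adarb1) in mutants, and their median log2 fold change was -0.12. Over all tested genes, 4.63% were called higher and 4.78% lower. Adarb1, which encodes the editing enzyme ADAR2, fell from 287.0 ± 49.0 CPM (SD, n = 4) to 151.6 ± 12.5 CPM (n = 3). Its controls were at 238.2 to 355.1 CPM and its mutants at 143.1 to 166.0 CPM, and its log2 fold change was -0.92 (SE 0.15, edgeR adjusted p = 0.00198). It was called in every alternative fit, with or without any 1 library, in contrast to Adarb2, which was called in none. Npas4, an activity-induced bHLH-PAS factor, rose from 7.04 ± 2.38 to 15.2 ± 3.52 CPM (SD, n = 4 and 3, log2 fold change 1.11, edgeR adjusted p = 0.0221), and its call was lost without mutant 6 or mutant 7 (adjusted p up to 0.124). Arnt and Arnt2, the dimer partners of PAS factors, and Sp9, the paralog of Sp8, were not called.

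Called markers of the classes that come from the caudal ganglionic eminence went in both directions, to be read against the 9.42% of all tested genes that were called. Of 10 VIP neuron markers, 9 were tested, with 1 higher and 2 lower and a median log2 fold change of 0.13. The number called was 5 with the length offset (2 higher, 3 lower, beside 16.5% of all genes in that fit) and 5 with 1 surrogate variable (20.5%). It was 1 without control 2, mutant 6 or mutant 8. These fits called 1046, 766 and 816 of all genes, against 1549 with all libraries. Tac2, a tachykinin precursor, rose from 22.5 ± 5.93 to 46.5 ± 4.67 CPM (SD, n = 4 and 3, log2 fold change 1.05, edgeR adjusted p = 0.00343) and was called in every alternative. Chat, the acetylcholine-synthesising enzyme, fell by 1.64 on the log2 scale (edgeR adjusted p = 0.0428), on few reads. Controls held 44 to 86 reads of Chat and mutants 6, 7 and 8 held 5, 28 and 22. Crh, corticotropin-releasing hormone, fell by 0.74 (edgeR adjusted p = 0.0298). Vip itself was 178.1 ± 55.5 CPM in controls and 147.6 ± 11.3 CPM in mutants (SD, n = 4 and 3, edgeR adjusted p = 0.469). Htr3a was 4.02 ± 0.392 and 6.29 ± 1.16 CPM, without overlap between groups but not called (edgeR adjusted p = 0.0944). With the length offset Htr3a was called.

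Of 10 LAMP5 neuron markers, 1 was higher and 2 lower, with a median of -0.44, also beside 9.42% of all genes. The number called was 7 with limma-voom (2 higher, 5 lower), in a fit that called 19.1% of all genes. It was 6 with the length offset (16.5% of all genes) or without control 4 (14.5%), each with 2 higher and 4 lower. With 1 surrogate variable (20.5%) it was 8 (2 higher, 6 lower), and without controls 1 and 4 (16.7%) it was 5. It was 1 without mutant 6 and 0 without mutant 8, where 766 and 816 of all genes were called. Npy, a neuropeptide of neurogliaform and other cells, fell from 264.8 ± 35.3 to 169.6 ± 12.8 CPM (SD, n = 4 and 3, log2 fold change -0.64, edgeR adjusted p = 0.00932), and the complexin gene Cplx3 fell by 1.39 on the log2 scale (edgeR adjusted p = 0.00817). Sv2c, a synaptic vesicle protein, rose by 0.43 (edgeR adjusted p = 0.0381). Lamp5 itself was 83.9 ± 19.6 and 58.0 ± 12.3 CPM (SD, n = 4 and 3, edgeR adjusted p = 0.107), not called on all libraries without an offset. Reln was 670.3 ± 99.9 and 901.3 ± 129.2 CPM (edgeR adjusted p = 0.162), without overlap between groups but likewise not called. Both were called with limma-voom, with 1 surrogate variable and without control 4, Lamp5 as lower and Reln as higher. Reln was also called with the length offset and without controls 1 and 4.

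Of 6 SNCG and CCK neuron markers, 2 were higher and 1 lower, with a median of 0.05, again beside 9.42% of all genes. None was called by edgeR without control 2, without any 1 of the mutants, or without control 4 and mutant 8, and 1 was called without control 3. Cck, the cholecystokinin precursor, rose from 42.1 ± 12.1 to 68.9 ± 4.53 CPM (SD, n = 4 and 3, edgeR adjusted p = 0.0255). Sncg, a synuclein, rose by 1.77 on the log2 scale (edgeR adjusted p = 0.0336) from as few as 3 reads in a control to at most 26 in a mutant, and Slc17a8, a vesicular glutamate transporter, fell by 0.98 (edgeR adjusted p = 0.0364).

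Of 8 transcription factors of the medial ganglionic eminence, 7 were tested and 0 were called by edgeR on all libraries, beside 9.42% of all tested genes. Lhx6 was the 1 at an unadjusted p under 0.05. DESeq2 also called 0, and limma-voom called 1, Lhx6, as higher (19.1% of all genes called). So did edgeR without controls 1 and 4 (16.7%). Lhx6 was 139.6 ± 8.62 CPM in controls and 164.3 ± 10.3 CPM in mutants, without overlap between groups (SD, n = 4 and 3, log2 fold change 0.23, edgeR adjusted p = 0.212). Sox6 gave -0.02 (edgeR adjusted p = 0.961). Among the genes common to GABAergic neurons, Gad1, Gad2 and Slc32a1, which make GABA or load it into vesicles, had log2 fold changes of 0.16, 0.11 and -0.03 and were not called. The calls of Chat, Crh, Sncg, Cplx3, Npy, Sv2c, Cck and Slc17a8 were each lost when at least 1 library was left out: Cplx3 without mutant 8, Npy without mutant 6 or 8, Crh and Sncg without control 2 or any mutant, Chat without control 2 or 3 or mutant 6 or 8, and Sv2c, Cck and Slc17a8 without control 2 or 3 or any mutant. Without control 4 and mutant 8, the libraries low in Y-linked reads, Chat, Sncg, Cck and Slc17a8 were not called. Sncg was not called without controls 1 and 4, nor Crh when library totals replaced the TMM factors. Their log2 fold changes kept their sign in all of these fits.

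**Figure D5:**
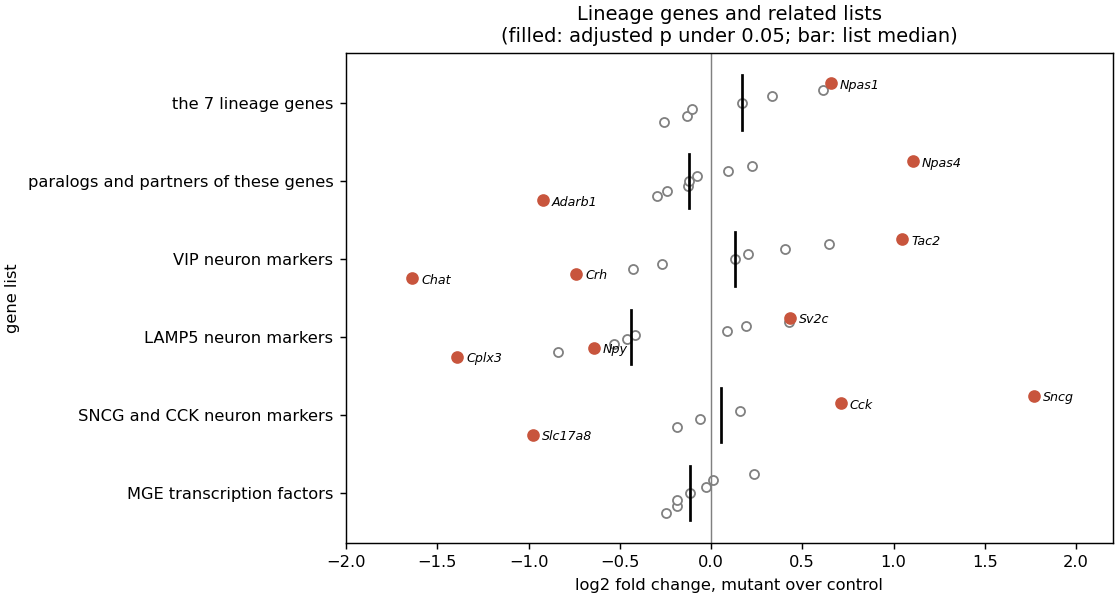
Each point is 1 tested gene, placed by its log2 fold change of mutant over control on the x axis, with a line per list on the y axis and a bar at the list median; filled points are called. Called genes lie on both sides of 0 in the family list and in the lists of VIP, LAMP5, and SNCG and CCK neurons, and among the 7 lineage genes only Npas1 is called.

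Markers of other cells were present at low or moderate levels. Of 43 such genes, 39 were tested and 1 was called, beside 9.42% of all tested genes. It was the myelin gene Mog, higher in mutants (log2 fold change 0.93, edgeR adjusted p = 0.00545). Summed over their lists, glutamatergic markers took 334.0 to 471.4 CPM in controls and 276.2 to 353.9 in mutants, oligodendrocyte markers 159.8 to 197.7 and 175.4 to 210.1 CPM, and astrocyte markers 151.9 to 275.5 and 158.8 to 189.6 CPM. Endothelial and mural markers took 68.8 to 164.8 and 73.2 to 104.6 CPM, and markers of hippocampal and olfactory bulb neurons 51.6 to 71.7 and 64.5 to 81.2 CPM. The 6 microglial markers were the only such list without overlap, at 13.2 to 18.1 CPM in controls and 18.2 to 21.7 in mutants. Among them only Csf1r did not overlap (7.42 ± 0.945 and 11.3 ± 1.08 CPM, SD, n = 4 and 3). Cx3cr1, C1qa, C1qb and Tmem119 overlapped, with log2 fold changes of -0.011, 0.04, 0.219 and -0.055. The edgeR fit read for all lists called 0 of 5 tested (Csf1r adjusted p = 0.055). Csf1r was called as higher by DESeq2, by limma-voom, and by edgeR with the 5 CPM filter, the length offset or 1 surrogate variable. So it was without control 4 and without controls 1 and 4. P2ry12 was at 0 in every library because its span lies wholly within that of other genes. Crispld2, Dlx1, Dlx6 and Gfap were at 0 for the same reason. Npas1 and Nr2f2 also had groups that did not overlap, both higher in mutants, and the part of microglial RNA in their differences was not tested.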

How the data were processed

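Per the labels' protocols, nuclear RNA was amplified with the Takara SMART-Seq v4 chemistry, made into Nextera XT libraries and read as paired ends of 75 bases on a NextSeq 500. The authors deposited whole-number counts of reads per gene with no normalization. Bowtie2 2.5.3 and the build mm10 (GRCm38) are named per the submitters' processing notes, without a role, and the counting program and its settings are not given in the sources used here. That shared stretches of gene spans and strand were left out of the counting was read from the tables themselves. All 55450 identifiers matched GENCODE M21, which gave symbols, biotypes and coordinates.

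Mutants 7 and 10 (0 of 21975 genes differing, chi-square per degree of freedom 0 against 4.23 to 5.71 between other mutants) were counted as 1 library. Each library came from its own cortex, so p-values measure the spread between these animals. Amplification without molecular identifiers means that read numbers overstate the number of molecules.

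In R 4.3.3, edgeR 4.0.16 fitted all genes kept by filterByExpr (least count 10, least total 15) with TMM factors, a robust quasi-likelihood model and genotype as the only term. Tests were two-sided, p-values were adjusted over all tested genes by the Benjamini-Hochberg method, and adjusted values under 0.05 were called. CPM means carry the SD over libraries. The length trend is a loess curve (span 0.3) of each library's log2 CPM deviations (prior count 2) on log gene span. The code was tested on simulated data. Alternatives were DESeq2 1.42.0, limma 3.58.1 (voom with quality weights), RLE factors, library totals, 2 other filters, the length offset, 1 surrogate variable (sva 3.50.0), and fits without libraries. Quality weights allow libraries to count unequally, and every limma-voom result here used them.

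The members and lists were chosen with earlier results of these data known. The text names the 7 genes, Thra, called genes and defining genes of the class, family and identity lists, overlapping genes or genes starting within 5 kb, and the 3 genes most like each member. Slc17a7, Csf1r, Mog and the genes listed at 0 were named after their values were seen. The values of 1 called gene of the lists are not reported here.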

Additional observations from a re-analysis of the deposited data

Results flagged for a closer look

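Nr2f1 in the controls was the only one of 28 sets of 4 control values examined (levels of the lineage genes and their antisense partners, the ratios and the summed lists) in which 1 library stood far from the others. Control 4 was at 30.0 CPM and the other 3 controls at 40.0 to 41.2 CPM. The gap took up 0.892 of the range of the controls, above Dixon's 95% limit for 4 samples, which chance passes in about 1 of 20 groups. The mutants, at 34.1 to 36.1 CPM, lay in this gap.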

How the results depend on the processing

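Npas1 kept its direction and its call in all 17 alternatives, and Prox1, Nr2f1 and Nr2f2 kept their direction in all of them. The number of genes called was 1549, and it was 3147 with limma-voom, 2711 with the length offset, 3379 with 1 surrogate variable, 2778 without controls 1 and 4, and 734 (without mutant 7) to 2347 (without control 4) when 1 library was left out. Of the 7 lineage genes, 1 was called, 2 with limma-voom, with the length offset, without control 4 and mutant 8 and without controls 1 and 4, 3 with 1 surrogate variable, and 1 to 2 with 1 library left out. The log2 fold change of Npas3, 0.61 and not called, was called at 0.66 with limma-voom, 0.62 with the length offset, 0.60 with 1 surrogate variable, 0.97 without control 4 and mutant 8, and 0.69 without controls 1 and 4. With 1 library left out it was 0.44 to 0.88. Nr2f2 was called at 0.36 with 1 surrogate variable. Adarb2, at -0.13, turned to 0.34 without control 4 and mutant 8, 0.043 without controls 1 and 4, and 0.22 without control 4, over -0.31 to 0.22 with 1 library left out. Sp8 went from -0.71 to 0.012 (without mutant 6) and had no value under a filter of a mean of 5 CPM. Of 49 tested genes of the related lists, 12 were called, beside 9.42% of all tested genes. With 1 surrogate variable 19 were called (20.5% of all genes), and without control 4 and mutant 8 it was 7 (8.53%). With 1 library left out it was 3 to 15. The 3 came without mutant 6 or mutant 8, where 766 and 816 of all genes were called, and the 15 without control 4 (14.5%). The cause of these shifts was not tested, and fits with fewer libraries have fewer degrees of freedom.

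None of the 6 ratios passed 0.05 after adjustment, and the log2 differences of 4 changed sign. Npas1 to Npas3 was 0.21 without control 1, 0.08 without control 3, 0.07 without mutant 6, 0.005 without mutant 7 and 0.032 less the length trend, over -0.27 to 0.21 with 1 library left out. Prox1 to Prox1os was 0.22 without control 2 and 0.11 without mutant 7, over -0.19 to 0.22. Nr2f1 to A830082K12Rik was -0.28 without control 4 and -0.027 without mutant 6, over -0.28 to 0.20, and Nr2f2 to B130024G19Rik was -0.007 without control 4, over -0.007 to 0.50. With 1 library left out, exact permutation tests of the ratios cannot go below p = 0.0667 (control left in full) or 0.1.

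No paired analysis was possible because the replicate numbers of controls and mutants do not overlap. The fit without controls 1 and 4 was chosen after seeing the data. Sp8 rested on 17 to 43 reads per library, and each value on 4 control and 3 mutant libraries.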
